A study of Mus musculus with 16 samples.

Results

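The retina of Uxt conditional knockout (CKO) mice was compared between postnatal day 14 (P14) and postnatal day 30 (P30). These 4 libraries, 2 at each age, were chosen by their labels from the 16 libraries of the series, and all genes in them were considered. The mice were C57BL/6. CKO mice came from a cross of Chx10-Cre mice with mice whose Uxt allele carries a loxP site on each side of exon 3, so that recombination follows the Chx10 promoter. The 4 control libraries of the same ages, 2 at each, are labelled only as control, with no statement of which of these alleles they carry. The material is labelled retina, and polyA+ RNA was read in pairs of 150 bases. No label says whether the libraries of a group came from separate animals or from pools, so the spread between libraries may be technical. Each p-value rests on that spread as pooled over the 8 groups of all 16 libraries.

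Uxt encodes a small prefoldin-like protein that is part of a chaperone complex with URI and the R2TP proteins and that binds several transcriptional regulators. The Cre line is active in retinal progenitors, which give rise to all retinal neurons and to Müller glia. Microglia, vessels, lens, cornea and the glands of the orbit have other origins. In the mouse, rods and cones lengthen their light-sensing outer segments and raise their phototransduction proteins after eye opening. In retinas that lose photoreceptors, Müller glia typically raise the filament protein Gfap, and microglia take up debris and make complement.

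Total counts were 18652581 and 18828091 at P14 and 18938796 and 22815404 at P30. The 2 P14 CKO libraries differed little, with a median absolute log2 difference between them of 0.110 over all tested genes. The 2 P30 CKO libraries differed by a median of 0.217, and their chi-square per degree of freedom was 34.8, against 1.71 at P14. In control it was 1.57 at P14 and 4.71 at P30. The p-values use a spread pooled over all groups, so they can understate the variation between the P30 CKO libraries. Xist, the RNA of the inactive X chromosome, was at 829 and 791 CPM at P14 and 0.511 and 0.738 CPM at P30, and the Y-linked Ddx3y was at 0.0674 and 0 CPM at P14 and 79.5 and 87.7 CPM at P30. The control libraries were split in the same way, so age and these sex-linked levels cannot be told apart. CPM values, counts relative to the library total, are scaled here by trimmed mean of M-values (TMM) factors and are listed as replicate 1 and then replicate 2. Levels of different genes in CPM are not adjusted for gene length.

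Uxt itself (ENSMUSG00000001134, chrX:20941722-20962017 in GRCm38) was at 8.15 and 7.98 CPM at P14 and 6.44 and 7.01 CPM at P30. Its log2 change was -0.26 ± 0.18 (SE, adjusted p = 0.209), and scaling by library size alone turned the sign, to 0.0565. In the control libraries it was at 5.41 and 7.61 CPM at P14 and 4.91 and 4.45 CPM at P30. At each age both CKO libraries were thus above both control libraries, and Uxt was not lower in CKO. No test of CKO against control was made for it at either age. The counts cover whole genes and do not separate the floxed exon 3 from the rest, so this level does not check the deletion. The libraries also hold RNA of tissues outside the neural retina, described below, and its part in the Uxt level was not tested. Of the prefoldin and R2TP complex list, which holds Uxt and partners of UXT, 1 of 15 tested members rose and 10 fell. The CKO median was -0.26 (0.0565 by library size alone), which is the value of Uxt itself. Over all tested genes 33.1% rose and 33.3% fell. In control 1 of the 15 members rose and 7 fell (median -0.14), where 25.2% of all tested genes rose and 27.8% fell. The change differed from control for 4 members, each more negative in CKO, against 21.2% of all tested genes. Uri1, the scaffold of the complex, was at 81.4 and 74.3 CPM at P14 and 53.7 and 46.7 CPM at P30 and fell by 0.64 ± 0.0678 in log2 (SE, adjusted p = 1.08e-07). Wdr92, an associated WD-repeat protein, fell by 1.06 on the log2 scale, and Vbp1, a prefoldin subunit, rose by 0.47.

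Of 21115 genes tested with edgeR's quasi-likelihood test, 14032 (66.5%) differed between P14 and P30 CKO libraries at an adjusted p under 0.05. Of these 6998 were higher (33.1%) and 7034 lower (33.3%) at P30. A difference of at least 2-fold was also met by 6812 genes (32.3%), of which 4180 (19.8%) were higher and 2632 (12.5%) lower. In the control libraries 5325 genes (25.2%) were higher and 5868 (27.8%) lower at P30. The change from P14 to P30 differed between CKO and control for 9500 genes (45.0%), with a more positive change in CKO for 5026 (23.8%) and a more negative one for 4474 (21.2%). That split was 6639 against 2643 by library size alone, 5934 against 3320 without crystallin and mitochondrial genes, and 5062 against 2587 with only the libraries compared. The median log2 change of all tested genes was 0.02 in CKO and -0.00187 in control.

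The P14 CKO libraries held a large amount of RNA of the lipid-secreting glands of the orbit, and at P30 it was nearly gone. Bpifa6, a secreted protein, was at 15175 and 15035 CPM at P14 and 0 and 0 CPM at P30, which is at least 207666-fold lower at P30 against a floor of 3 counts over both libraries. Elovl5, a fatty acid elongase, was at 14363 and 14558 CPM at P14 and 84.7 and 93.9 CPM at P30, and Plin2, a lipid droplet coat protein, at 5873 and 5898 CPM at P14 and 39.5 and 44.96 CPM at P30. Of the lacrimal and Harderian gland list 10 of 11 tested members fell and none rose, with a median of -8.797 in CKO and -6.48 in control. The summed level of the list was 26363 and 26396 CPM at P14 and 465 and 432 CPM at P30, and the P14 control libraries stood at 6541 and 6683 CPM. Scd1, a stearoyl-CoA desaturase on that list, was at 10256 and 10420.4 CPM at P14 and 465 and 432 CPM at P30 and fell by 4.53 ± 0.0792 in log2 (SE, adjusted p = 2.54e-18). The P30 sum of the list was almost entirely Scd1, which many tissues express. Elovl3, another elongase of these glands, was at 895 and 909 CPM at P14 and 0 and 0.323 CPM at P30. The 10 largest falls by the naming rule were Bpifa6, Obp1a, Ugt1a8, Il20, Dgat2l6, Aadacl3, Mucl2, Scgb2b2, Obp1b and Aox4. Obp1a, an odorant-binding lipocalin, was at 430.4 and 413 CPM at P14 and not counted at P30, at least 5799-fold lower. Il20 at 278 and 271 CPM, Ugt1a8 at 285 and 286 CPM, Aadacl3 at 90.4 and 89.02 CPM, Mucl2 at 82.3 and 82.9 CPM, Scgb2b2 at 65.7 and 71.3 CPM and Obp1b at 40.3 and 35.8 CPM at P14 were likewise not counted at P30. Dgat2l6 was at 879 and 866 CPM at P14 and 0 and 0.0461 CPM at P30, and Aox4 at 436 and 433 CPM at P14 and 0.0511 and 0.0922 CPM at P30. None of these 10 genes passed 0.1 CPM in a P30 CKO library.

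Lens RNA fell as well, and cornea and muscle RNA rose in CKO. Of 7 cornea genes 5 rose and 1 fell (median 2.67, control 1.68). The cornea sum rose in control too, from 2085 and 2062 CPM at P14 to 10603 and 9447 CPM at P30. All 6 muscle genes rose in CKO (median 2.42), while in control 0 rose and 3 fell (median -0.78). Of 22 lens genes 20 fell and none rose (median -1.86, control -1.83), and their sum was 86838 and 85682 CPM at P14 and 23909 and 14433 CPM at P30. Cryaa, the alpha-crystallin chaperone of the lens, was at 15283 and 15441 CPM at P14 and 6412 and 3975 CPM at P30, and Cryge, a gamma-crystallin of lens fibres, at 4711 and 5097 CPM at P14 and 1.43 and 2.07 CPM at P30. Crygn fell by 4.96 on the log2 scale. Krt12, the keratin of the corneal epithelium, was at 11.05 and 12.2 CPM at P14 and 1613 and 2247 CPM at P30, a log2 change of 7.37 ± 0.19 (SE, adjusted p = 1.38e-10). Aldh3a1, a corneal crystallin, was at 25.1 and 27.8 CPM at P14 and 3109 and 3836 CPM at P30, and Krt5, a keratin of basal epithelia, at 539 and 557 CPM at P14 and 4758 and 6044 CPM at P30. Both P30 libraries were above both P14 libraries for each of these 3 genes. The P14 and P30 CKO libraries did not overlap, in either direction, for 80.5% of all tested genes. The 10 largest rises by the rule were Slurp1, Lypd2, Psca, Krt12, Aldh3a1, Klk6, Apol9a, Apol9b, Cyp2e1 and Padi4. Slurp1, a secreted epithelial protein, was at 0 and 0.06704 CPM at P14 and 139 and 203 CPM at P30, Lypd2 at 1.21 and 1.34 CPM at P14 and 377 and 486 CPM at P30 and Psca at 1.21 and 1.88 CPM at P14 and 290.0 and 374 CPM at P30. Klk6, a secreted protease, reached 10.4 and 14.8 CPM at P30, Cyp2e1 41.6 and 39.5 CPM and Padi4 18.6 and 32.4 CPM, from under 1 CPM at P14 in both libraries.

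The muscle genes were uneven between the P30 libraries. Their sum was 1767 and 1846 CPM at P14 and 6273 and 12127 CPM at P30, with replicate 2 above replicate 1 for all 6 of 6 genes. Atp2a1, the calcium pump of fast muscle, was at 831 and 856 CPM at P14 and 3041 and 6546 CPM at P30, a log2 change of 2.51 ± 0.297 (SE, adjusted p = 6.38e-05). In the extracellular matrix and fibroblast list 11 of 14 members fell and 3 rose (median -1.898, control -2.84). Col1a1, the main collagen of sclera and skin, was at 3228 and 3379 CPM at P14 and 459 and 603 CPM at P30, while Dcn, a small proteoglycan, was at 643 and 622 CPM at P14 and 976 and 1296 CPM at P30 and Pcolce, an enhancer of collagen processing, at 163 and 165 CPM at P14 and 296 and 290.4 CPM at P30. All CKO libraries of both ages therefore contain RNA of tissues outside the neural retina, in amounts that differ with age, and its part in the retinal results below was not tested.

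**Figure D1:**
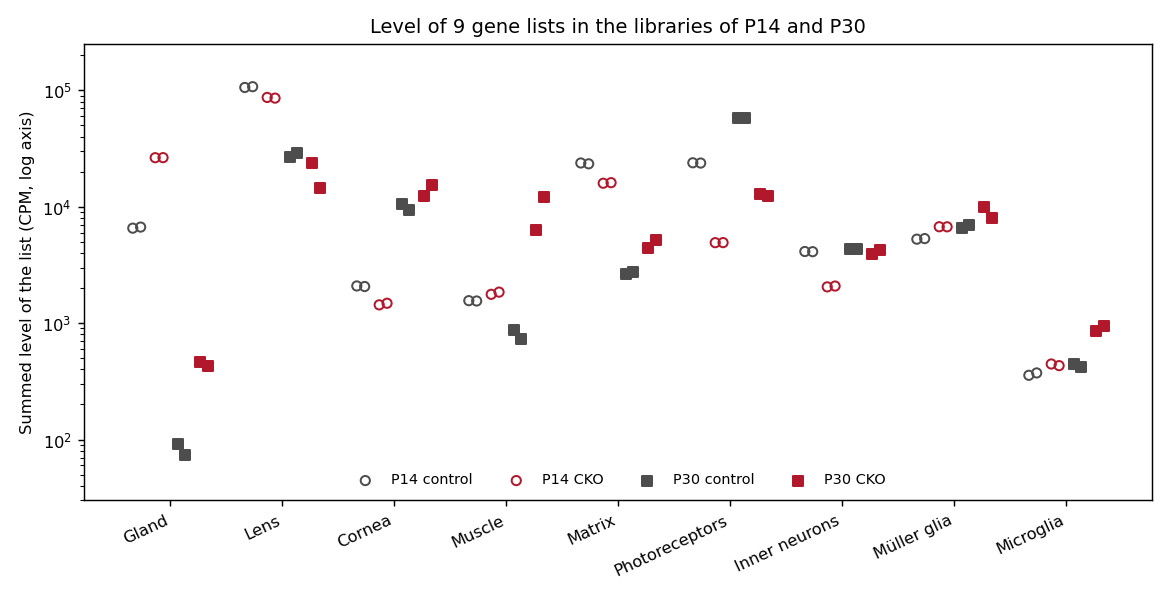
Summed level of 9 gene lists in each library, in CPM on a log axis; open circles are P14, filled squares P30, red CKO and grey control, with 1 point per library and no error bars. In CKO the gland sum was 26363 and 26396 CPM at P14 and 465 and 432 CPM at P30, and the photoreceptor sum 4909 and 4915 CPM at P14 and 12912 and 12247 CPM at P30, below both control libraries at each age.

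Because the other tissues take up different shares of the counts at the 2 ages, a second scale was used beside the TMM scale. On this inner neuron scale, chosen after seeing the data, libraries were scaled on 54 genes of bipolar, horizontal, amacrine and ganglion cells. It moved the median log2 change of all genes to -1.43 in CKO, and the calls to 1444 higher and 15223 lower in place of 6998 and 7034. Scaling by library size alone moved the split the other way, to 9786 higher and 4425 lower. A log2 rise of less than about 1.43 on the TMM scale is a fall on the inner neuron scale. The summed level of the inner neuron lists rose by only 0.99 in log2, so where this line falls depends on how those genes are summarised. Directions below are on the TMM scale unless stated, and the median on the inner neuron scale is given where its sign is opposite. In bulk RNA, fewer cells of a type and less RNA per cell cannot be told apart.

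Rod genes rose from P14 to P30 in CKO retina and stayed far below control. Of 19 genes of rod phototransduction and the outer segment 18 rose and none fell, with a median of 1.27 (-0.19 on the inner neuron scale), against a median of 1.09 in control. Sag, the rod arrestin that ends the light response, was at 286 and 285 CPM at P14 and 623 and 522 CPM at P30, a log2 change of 1.004 ± 0.0628 (SE, adjusted p = 5.02e-11). Control libraries held 1494 and 1484 CPM of Sag at P14 and 1926 and 2066 CPM at P30, so every CKO library was below every control library. Gnat1, the alpha subunit of rod transducin, was at 298 and 295 CPM at P14 and 1199 and 1273 CPM at P30 in CKO, a log2 change of 2.06 ± 0.0622 (SE, adjusted p = 7.44e-16), and at 1269.7 and 1244 CPM at P14 and 6065 and 6261 CPM at P30 in control. Prph2, a tetraspanin of the disc rim, was at 194 and 199 CPM at P14 and 577 and 555 CPM at P30, and Gnb5, part of the complex that switches transducin off, at 46.8 and 45.2 CPM at P14 and 139 and 129 CPM at P30. For these 4 genes the P14 and P30 CKO libraries did not overlap, which was also so for 80.5% of all tested genes. Nr2e3, a nuclear receptor that holds rod identity, rose by only 0.31 ± 0.0509 (SE). The 1 rod gene that was not called, Samd11, was at 68.04 and 72.9 CPM at P14 and 121 and 67.6 CPM at P30, and its change turned from 0.42 to -0.0695 without P30 replicate 1 (it was called without replicate 2, at 0.79, by library size alone, at 0.75, and by DESeq2, at 0.43).

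Most cone genes rose. Of 15 cone genes 12 rose and 1 fell (median 2.37, control 2.13), and their sum rose 2.19-fold, against 2.88-fold for the rod list. The cone sum was 249 and 238 CPM at P14 and 532 and 537 CPM at P30. Its rise is held down by Thrb, the member that fell, which made up 101 and 97.7 CPM of it at P14 and 30.2 and 28.1 CPM at P30. Arr3, the cone arrestin, was at 2.83 and 1.81 CPM at P14 and 30.99 and 39.8 CPM at P30, a log2 change of 3.93 ± 0.19 (SE, adjusted p = 5.03e-11), and Gnat2, cone transducin, at 3.57 and 3.89 CPM at P14 and 18.2 and 21.6 CPM at P30. In control libraries Arr3 was at 16.98 and 18.6 CPM at P14 and 226 and 266 CPM at P30, so the P30 CKO level was below the P30 control level. Ccdc136 was at 13.6 and 11.9 CPM at P14 and 41.7 and 44.7 CPM at P30 and rose by 1.76 on the log2 scale. Opn1sw, the short-wavelength cone pigment, was at 4.85 and 4.56 CPM at P14 and 3.94 and 33.5 CPM at P30, so that only P30 replicate 2 was high, and the log2 change of 2.02 (adjusted p = 0.0617) turned to -0.25 without it and passed the threshold without replicate 1, at 2.82. It also passed by library size alone (2.31), by DESeq2 (2.002), without crystallin and mitochondrial genes (2.14) and with at least 5 CPM required in 2 libraries (2.06). Gngt2, the cone transducin gamma subunit, was not called at 6.47 and 7.24 CPM at P14 and 6.19 and 8.02 CPM at P30, except by library size alone (0.37). Thrb, the thyroid hormone receptor that directs medium-wavelength cone fate, went the other way, from 101 and 97.7 CPM to 30.2 and 28.1 CPM, and fell by 1.77 ± 0.0665 in log2 (SE, adjusted p = 2.28e-14). In control Thrb was at 55.99 and 54.1 CPM at P14 and 54.3 and 53.3 CPM at P30, and the difference of the 2 changes was -1.74 ± 0.0929 (SE, adjusted p = 5.65e-11).

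Of 24 genes used by rods and cones alike 22 rose and none fell (median 0.99, -0.48 on the inner neuron scale, control 0.69). Crx, the homeodomain factor that drives photoreceptor genes, was at 106 and 105 CPM at P14 and 146 and 142 CPM at P30, a log2 change of 0.45 ± 0.0431 (SE, adjusted p = 2.35e-08). Rcvrn, the calcium sensor recoverin, was at 94.9 and 97.7 CPM at P14 and 144 and 127 CPM at P30, Abca4, the retinoid transporter of the disc membrane, at 76.2 and 77.3 CPM at P14 and 271 and 259 CPM at P30, and Rbp3, the retinoid carrier of the matrix around photoreceptors, at 239 and 258 CPM at P14 and 621 and 599.6 CPM at P30. The rise of Abca4 was thus more than 3 times as large on the log2 scale as that of Crx or Rcvrn, at 1.79 against 0.45 and 0.49. Unc119, a lipid-binding trafficking protein, rose by 1.21. At the photoreceptor synapse 13 of 14 members rose and 1 fell (median 1.21, -0.25 on the inner neuron scale, control 0.78). Cacna1f, the calcium channel of the ribbon synapse, was at 39.2 and 47.4 CPM at P14 and 135 and 121 CPM at P30, and Cacna2d4, its accessory subunit, rose by 1.57. Unc13b, a vesicle priming protein, was at 191 and 189.8 CPM at P14 and 104 and 116 CPM at P30 and fell by 0.79 ± 0.0598 in log2 (SE, adjusted p = 8.22e-10), whereas it changed by 0.51 in control. In the photoreceptor cilium list 9 of 16 rose and 2 fell (median 0.54, -0.92 on the inner neuron scale, control 0.0858), Bbs4, a protein of ciliary transport, by 1.14 and Arl3, a ciliary GTPase, by 0.98.

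The promoters of 3 photoreceptor genes that rose together show a letter match to the core of CRX-type homeodomain sites. The windows run from 250 bases before to 50 bases after the transcription start, from RefSeq on GRCm38.p6, printed 5′ to 3′ on the gene's strand, with TAATCC or its reverse complement GGATTA in capitals. Sag is at chr1:87803430-87803729 on the plus strand, Rbp3 at chr14:33953753-33954052 on the plus strand and Abca4 at chr3:122044210-122044509 on the plus strand.
Sag: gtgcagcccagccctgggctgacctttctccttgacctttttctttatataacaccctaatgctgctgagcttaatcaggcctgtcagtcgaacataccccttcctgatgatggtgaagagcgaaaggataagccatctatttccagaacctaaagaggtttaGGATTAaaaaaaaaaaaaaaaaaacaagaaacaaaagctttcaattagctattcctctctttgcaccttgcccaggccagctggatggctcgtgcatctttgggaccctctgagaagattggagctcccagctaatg
Rbp3: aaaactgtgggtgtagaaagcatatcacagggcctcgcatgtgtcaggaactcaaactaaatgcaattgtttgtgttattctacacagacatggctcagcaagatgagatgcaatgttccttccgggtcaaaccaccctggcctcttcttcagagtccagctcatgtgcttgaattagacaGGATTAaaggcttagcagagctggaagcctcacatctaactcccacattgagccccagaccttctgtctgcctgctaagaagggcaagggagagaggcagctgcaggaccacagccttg
Abca4: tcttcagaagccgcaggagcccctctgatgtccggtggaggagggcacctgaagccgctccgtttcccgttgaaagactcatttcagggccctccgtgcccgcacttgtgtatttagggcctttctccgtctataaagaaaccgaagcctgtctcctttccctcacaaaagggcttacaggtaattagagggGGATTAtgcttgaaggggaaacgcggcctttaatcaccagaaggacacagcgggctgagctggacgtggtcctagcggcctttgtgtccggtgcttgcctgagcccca
On either strand, TAATCC occurs in 15 of the 43 photoreceptor genes with such a window (34.9%) and in 7.16% of all 27025 windows of this length. In the other lists searched it was in 4 of 16 interferon genes, 3 of 14 bipolar cell genes, 2 of 20 lens genes and 0 of 11 antigen presentation genes. By photoreceptor list it was in 6 of 13 rod genes, 3 of 11 cone genes and 6 of 19 common genes. A match is a description of letters in this window and not a measured site, and the genes holding it include Thrb, which fell.

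Relative to the inner retinal neurons of the same library, the rod list was lower at P30 than at P14 in CKO and higher in control by the difference of list medians, but higher at P30 in both by the ratio of summed levels. The median log2 level of the rod list minus that of the inner neuron lists was 3.57 and 3.35 at P14 and 2.93 and 3.01 at P30 in CKO, a change of -0.49. In control the same difference was 3.47 and 3.48 at P14 and 4.67 and 4.57 at P30, a change of 1.15. For the genes common to rods and cones the change was -0.62 in CKO and 1.06 in control, and for the synapse list -1.07 and 0.39. For the cone list it was 0.36 and 2.28, and the 2 P30 CKO libraries differed, at -1.46 and -0.31. Against the bipolar cell list alone the rod change was -0.10 in CKO, about the SD of 0.094 between the P14 libraries, and 0.96 in control. The rod sum divided by the inner neuron sum was 1.49 and 1.46 at P14 and 2.28 and 2.01 at P30 in CKO, and 3.67 and 3.67 at P14 and 9.77 and 9.69 at P30 in control. The direction in CKO thus depends on the summary used. None of these differences or ratios was given a test.

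**Figure D2:**
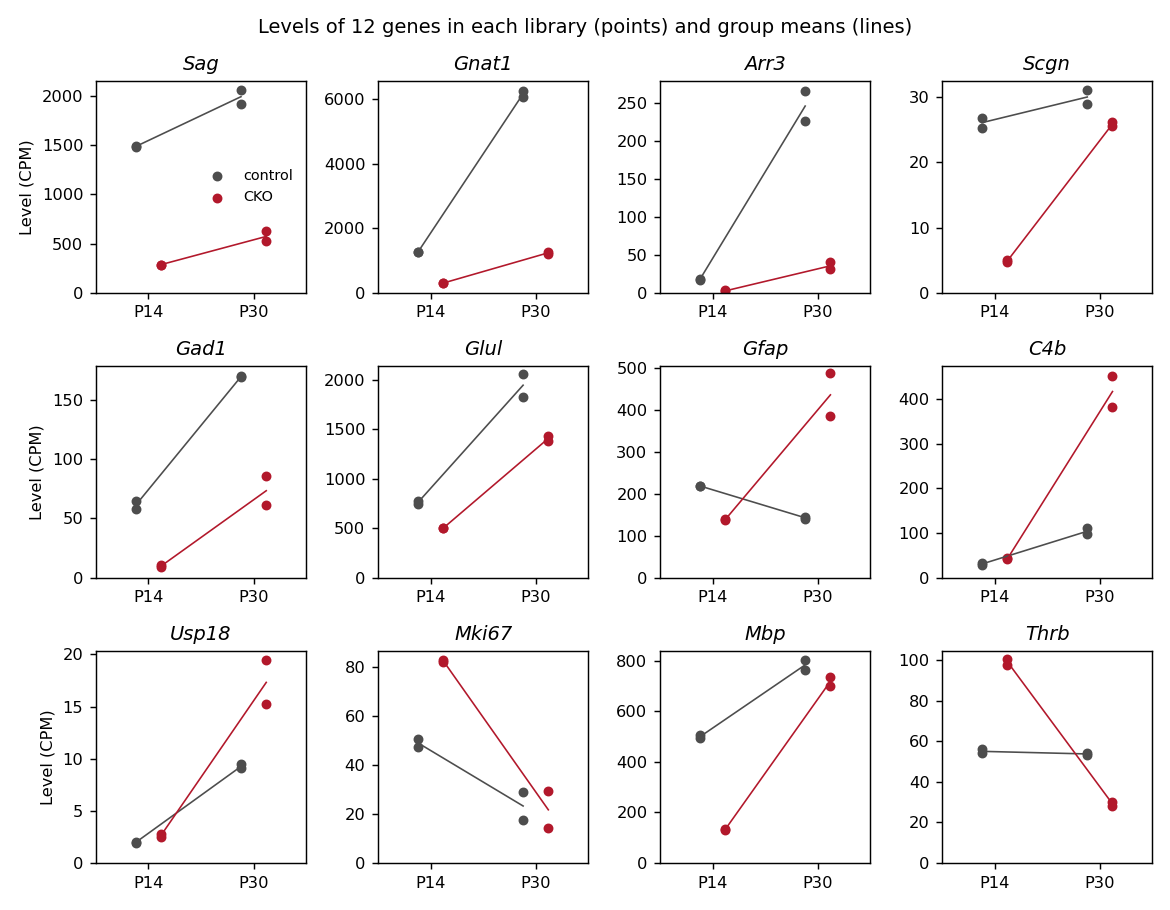
Levels of 12 genes in CPM on linear axes that start at 0, at P14 and P30, with 1 point per library and lines between group means; red is CKO and grey control. Sag, Gnat1 and Arr3 rose in both and stayed lower in CKO, Gfap rose in CKO and fell in control, and Thrb fell in CKO; on the inner neuron scale the rise of Sag in CKO, under 1.43 in log2, is a fall.

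Genes of inner retinal neurons rose in CKO on the TMM scale far more than in control. Over the 4 cell type lists 52 of 57 tested members rose and 2 fell, with a median of 1.99 in CKO and 0.39 in control. The change was more positive in CKO for 49 of them and more negative for 3, against 23.8% and 21.2% of all tested genes. Their summed level was 2047 and 2081 CPM at P14 and 3956 and 4241 CPM at P30, and in control 4122 and 4107 CPM at P14 and 4359.9 and 4314 CPM at P30. The P14 CKO sums were below those of control. The P30 CKO sums were close to control only in total. The ganglion cell sum was 1009 and 1565 CPM in P30 CKO against 651 and 633 CPM in control, and Pvalb, parvalbumin, which fast muscle also expresses and which was singled out after its values were seen, made up 565 and 1233 CPM of the CKO sums against 105 and 92.6 CPM in control. The bipolar sum was 892 and 911 CPM against 1385 and 1395 CPM, and the amacrine sum 1192 and 958 CPM against 1504 and 1493 CPM. Without the ganglion cell list the inner neuron sum was 2948 and 2676 CPM in P30 CKO and 3709 and 3681 CPM in P30 control, so CKO was lower. The gland sum that took up the P14 CKO libraries moved with this result, and its part was not tested.

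All 17 of 17 bipolar cell genes rose (median 1.33, -0.13 on the inner neuron scale, control 0.203). Grm6, through which ON bipolar cells sense glutamate, was at 65.95 and 61.3 CPM at P14 and 69.6 and 78.5 CPM at P30, and its call was lost without P14 replicate 2 (0.16) or without P30 replicate 2 (0.13), and with only the libraries compared (0.23). Scgn, a calcium-binding protein of cone bipolar cells, was at 4.78 and 4.96 CPM at P14 and 25.7 and 26.1 CPM at P30, and Grik1, a kainate receptor of OFF bipolar cells, at 8.49 and 8.18 CPM at P14 and 50.6 and 40.9 CPM at P30. Gpr179, which anchors the ON bipolar cascade, rose by 1.26.

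Of 10 horizontal cell genes 8 rose and 1 fell (median 1.67, control 0.26). Calb1, calbindin, was at 2.22 and 2.08 CPM at P14 and 15.8 and 14.02 CPM at P30. Lhx1, a factor of horizontal cell placement, was at 0.135 and 0.402 CPM at P14 and 3.22 and 1.61 CPM at P30, and Onecut1, a horizontal cell factor, at 0 and 0.134 CPM at P14 and 0.9204 and 0.553 CPM at P30, both near the floor of 3 counts at P14. Tfap2b was the member that fell, at 205 and 209 CPM at P14 and 101 and 88.02 CPM at P30. Of 15 amacrine cell genes 13 rose and none fell (median 2.14, control 0.63). Gad1, which makes the inhibitory transmitter GABA, was at 10.8 and 8.98 CPM at P14 and 85.5 and 61.1 CPM at P30, a log2 change of 2.89 ± 0.15 (SE, adjusted p = 8.18e-10). Gad2, its second form, was at 2.83 and 3.35 CPM at P14 and 19.02 and 14.5 CPM at P30, and Calb2, calretinin, at 8.56 and 8.51 CPM at P14 and 61.5 and 47.95 CPM at P30. Of 15 ganglion cell genes 14 rose and 1 fell (median 2.46, control 0.38). Sncg, gamma-synuclein, was at 4.92 and 4.42 CPM at P14 and 33.8 and 30.2 CPM at P30, a log2 change of 2.77 ± 0.101 (SE, adjusted p = 1.44e-14). Pou4f1, the ganglion cell factor BRN3A, rose by 2.42, and Slc17a6, the vesicular glutamate transporter of ganglion cells, by 2.58. Rbpms, an RNA-binding protein of ganglion cells that muscle and vessel walls also express, fell by 1.07 ± 0.0669 in log2 (SE, adjusted p = 5.15e-11).

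**Figure D3:**
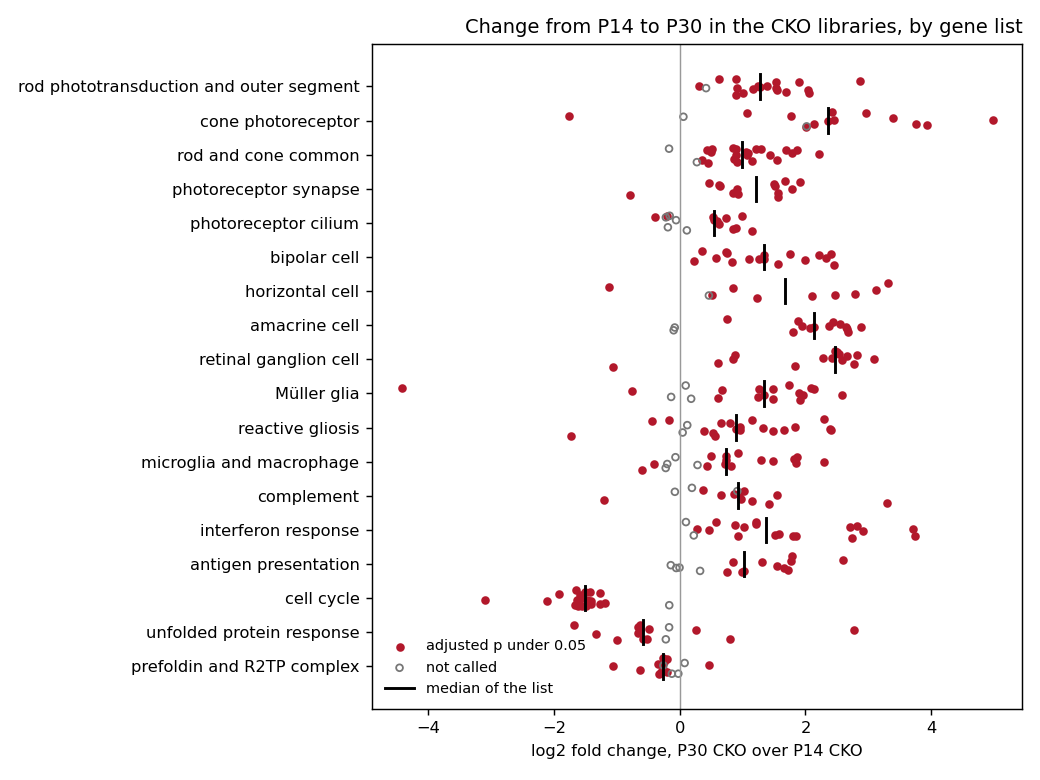
The log2 fold change from P14 to P30 in CKO of each tested member of 18 lists on the TMM scale; red points passed an adjusted p of 0.05, open points did not, and black bars are list medians. Retinal neuron, glial and immune lists lie mostly right of 0 and cell cycle genes left of it; adding -1.43, the shift to the inner neuron scale, puts the medians of the rod, bipolar, Müller and immune lists below 0.

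Müller glia genes rose, with exceptions. Of 19 tested members 14 rose and 2 fell (median 1.34, -0.14 on the inner neuron scale, control 0.54). Glul, the glutamine synthetase that clears glutamate, was at 500.1 and 501 CPM at P14 and 1429 and 1384 CPM at P30, a log2 change of 1.49 ± 0.0514 (SE, adjusted p = 5.69e-15), and its change minus that in control was 0.14 ± 0.0711 (SE, adjusted p = 0.13). That difference passed the threshold by library size alone (0.35), without crystallin and mitochondrial genes (0.26), without P30 CKO replicate 2 (0.16) and without P30 control replicate 2 (0.22). Rlbp1, the retinaldehyde-binding protein of Müller glia and pigment epithelium, was at 104 and 98.5 CPM at P14 and 529 and 332 CPM at P30, and Aqp4, the water channel of glial endfeet, at 17.6 and 16.5 CPM at P14 and 80.5 and 69.7 CPM at P30. Dbi, an acyl-CoA-binding protein, was at 3412 and 3356 CPM at P14 and 160.4 and 155 CPM at P30, and Sox9, a glial and progenitor factor, at 109 and 106 CPM at P14 and 65.8 and 60.5 CPM at P30. These were the 2 members that fell, and Dbi fell in control too, by 3.59 on the log2 scale.

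Of 21 reactive gliosis genes 16 rose and 3 fell (median 0.89, -0.56 on the inner neuron scale, control 0.296). Gfap was at 140.0 and 138 CPM at P14 and 488 and 386 CPM at P30, a log2 change of 1.65 ± 0.0755 (SE, adjusted p = 3.12e-12). In control it went from 219 and 219 CPM to 140.4 and 146 CPM, and the difference of the 2 changes was 2.26 ± 0.11 (SE, adjusted p = 5.23e-11). A2m, the protease inhibitor alpha-2-macroglobulin, was at 87.8 and 83.5 CPM at P14 and 285 and 327 CPM at P30 and differed likewise, by 2.67 ± 0.14 (SE, adjusted p = 6.41e-09). Serpina3n, an acute-phase protease inhibitor, was at 93.2 and 97.00 CPM at P14 and 174 and 178 CPM at P30 and rose more in control, so that the difference was -1.46 ± 0.12 (SE, adjusted p = 2.41e-08). Lcn2, an iron-siderophore carrier of the acute phase that glands also secrete, fell by 1.73 ± 0.16 in log2 (SE, adjusted p = 2.04e-08).

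Of 19 microglia and macrophage genes 13 rose and 2 fell (median 0.73, -0.72 on the inner neuron scale, control -0.0249). For 13 the change was more positive in CKO and for 1 more negative, against 23.8% and 21.2% of all tested genes. The median difference of the list was 0.90 on the TMM scale. The inner neuron scale moves the median difference of all genes to -0.995, so positive differences under about 1 turn negative there. C1qa, the first component of the classical complement pathway made by microglia, was at 37.6 and 33.7 CPM at P14 and 67.3 and 68.1 CPM at P30, a log2 change of 0.93 ± 0.0707 (SE, adjusted p = 9.35e-10), and the difference from control was 1.05 ± 0.103 (SE, adjusted p = 1.57e-07). Lyz2, the lysozyme of myeloid cells, was at 70.1 and 67.3 CPM at P14 and 297 and 375 CPM at P30, and Ctss, a lysosomal protease, at 22.2 and 20.6 CPM at P14 and 71.3 and 80.2 CPM at P30. Cx3cr1, the fractalkine receptor and a marker of resting microglia, was at 12.3 and 11.8 CPM at P14 and 10.6 and 10.4 CPM at P30 (log2 change -0.199 ± 0.13 (SE, adjusted p = 0.202)). Tmem119, another such marker, was at 18.3 and 20.98 CPM at P14 and 12.7 and 16.9 CPM at P30. Neither gene was called higher, and further markers of resting microglia are not given here. The fall of Tmem119 was not called without P14 replicate 2 (-0.31) or without P30 replicate 1 (-0.23), nor by library size alone (-0.0904) or with only the libraries compared (-0.398). In the activated phagocyte list 12 of 17 rose and 4 fell (median 1.09, -0.36 on the inner neuron scale, control -0.0204). Its summed level went the other way, from 5730 and 5716 CPM at P14 to 3627 and 3668 CPM at P30. In control the sum fell as well, from 3522 and 3531 CPM to 1959 and 1996 CPM. Gpnmb, a glycoprotein of phagocytes and pigment cells, was at 329.7 and 337 CPM at P14 and 707 and 721 CPM at P30, and Lgals3, galectin-3, at 44.1 and 43.7 CPM at P14 and 219.7 and 238 CPM at P30, and Lgals3 rose by 2.41 in control also. Fabp5, a fatty acid-binding protein of epithelia and glands, fell by 3.66 on the log2 scale.

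Complement genes rose in CKO. Of 14 members 10 rose and 1 fell (median 0.93, -0.51 on the inner neuron scale, control 0.0291). On the TMM scale 9 had a more positive change in CKO and 1 a more negative one, against 23.8% and 21.2% of all tested genes. The median difference was 0.72, and positive differences under about 1 turn negative on the inner neuron scale. C4b, the central classical pathway component, was at 43.7 and 41.03 CPM at P14 and 453 and 381 CPM at P30, a log2 change of 3.300 ± 0.12 (SE, adjusted p = 2.84e-11), and exceeded the control change by 1.55 ± 0.17 (SE, adjusted p = 6.56e-06). C3, on which all complement pathways meet, was at 51.6 and 54.97 CPM at P14 and 94.8 and 114 CPM at P30, and Serping1, the inhibitor of the first step, at 98.9 and 99.8 CPM at P14 and 207 and 231 CPM at P30. The change of Serping1 differed from control by 1.17 ± 0.0803 (SE, adjusted p = 1.61e-09). C4a, a near copy of C4b whose reads the counting may split, fell by 1.21 on the log2 scale.

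Interferon-response genes rose in CKO, and their median was also positive in control. Of 20 members 18 rose and none fell (median 1.37, -0.0951 on the inner neuron scale, control 1.44), and the change differed from control for 1 member upward and 1 downward. P30 replicate 1 was above replicate 2 for 19 of the 20 genes. Usp18, which removes the ubiquitin-like ISG15, was at 2.49 and 2.82 CPM at P14 and 19.4 and 15.2 CPM at P30, a log2 change of 2.701 ± 0.19 (SE, adjusted p = 1.97e-10), and its difference from control was 0.48 ± 0.29 (SE, adjusted p = 0.19). Isg15 was at 3.91 and 3.62 CPM at P14 and 69.8 and 29.2 CPM at P30, Ifit1, a sensor of foreign RNA caps, at 3.91 and 3.69 CPM at P14 and 67.4 and 34.03 CPM at P30, and Oas3, an RNA-activated synthetase, at 0.606 and 0.804 CPM at P14 and 42.1 and 21.2 CPM at P30. Apol9a and Apol9b, near-identical genes whose reads may be shared, were at 29.04 and 9.82 CPM and 16.8 and 4.06 CPM at P30 from 0.135 and 0.201 CPM and 0.0674 and 0.134 CPM at P14, and replicate 1 was again the higher. Stat2, a factor that carries the interferon signal, rose by 0.89. Irgm1, an immunity GTPase, rose by 1.52, and Ifi27 by 1.22.

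In the antigen presentation list 11 of 15 members rose and none fell (median 1.02, -0.45 on the inner neuron scale, control 1.24). B2m, the light chain of class I molecules, was at 121 and 119 CPM at P14 and 481 and 340.0 CPM at P30, Psmb8, an immunoproteasome subunit, at 7.55 and 9.45 CPM at P14 and 57.9 and 45.5 CPM at P30, and Cd74, the class II invariant chain, at 46.1 and 47.8 CPM at P14 and 134 and 118 CPM at P30. H2-K1, a class I heavy chain with close paralogs, was not called at 444 and 442 CPM at P14 and 532 and 320.3 CPM at P30. T and NK cell genes were low, with a sum of 3.77 and 3.42 CPM at P14 and 12.8 and 12.96 CPM at P30, and 7 of 10 rose. Cd4 was at 1.55 and 1.54 CPM at P14 and 3.89 and 6.36 CPM at P30 and Cd8a at 0.135 and 0.134 CPM at P14 and 1.02 and 1.11 CPM at P30, while Cd3e, the defining T cell receptor component, was at 0.269 and 0.06704 CPM at P14 and 0.409 and 0.599 CPM at P30 and was not called. Ccl2, the chemokine that draws monocytes, was at 0.741 and 0.939 CPM at P14 and 4.295 and 4.98 CPM at P30 and changed by 0.00982 in control. In the chemokine and cytokine list 7 of 13 rose and 1 fell (median 0.998, 0.57 without P14 replicate 2, -0.44 on the inner neuron scale).

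**Figure D4:**
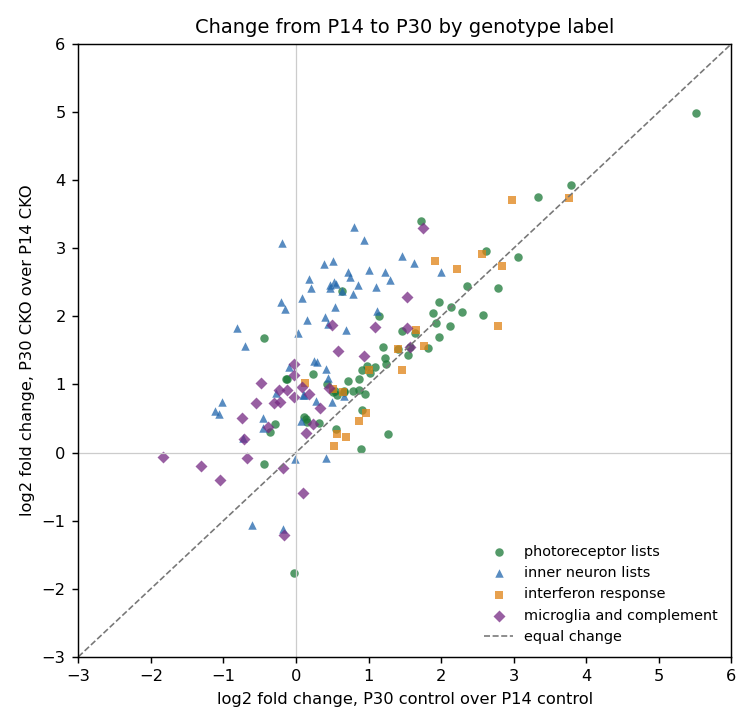
The log2 fold change from P14 to P30 in CKO against that in control for each tested gene of the photoreceptor, inner neuron, interferon, and microglia and complement lists on the TMM scale; the dashed line marks equal change. Inner neuron genes lie above the line for 49 of 57 genes by the test of the difference and below it for 3. Interferon genes lie near it, with 1 above and 1 below. The inner neuron scale lowers the median difference of all genes to -0.995.

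Cell cycle genes fell. None of 21 rose and 20 fell, with a median of -1.500 in CKO and -0.84 in control. Mki67, a protein of dividing cells, was at 82.1 and 82.9 CPM at P14 and 14.2 and 29.2 CPM at P30, Top2a, the topoisomerase of mitosis, at 66.2 and 68.3 CPM at P14 and 16.3 and 32.9 CPM at P30, and Rrm2, which supplies deoxynucleotides, at 91.96 and 92.9 CPM at P14 and 8.54 and 13.00 CPM at P30. P30 replicate 2 was above replicate 1 for 19 of the 21 genes, and both were below P14 for these 3. Pcna, the replication clamp, fell by 1.42 ± 0.0572 in log2 (SE, adjusted p = 6.79e-14). Genes of neurogenic precursors and progenitors were mixed, with 8 of 19 higher and 5 lower (median 0.61, -0.695 on the inner neuron scale, control -0.35). Over all tested genes 33.1% were higher and 33.3% lower. Rax, a retinal progenitor factor that photoreceptors and Müller glia keep, was at 6.400 and 7.17 CPM at P14 and 28.9 and 19.8 CPM at P30, and Sox11, a factor of young neurons, at 5.25 and 5.56 CPM at P14 and 2.25 and 2.905 CPM at P30.

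Stress and cell death genes moved in both directions, as did all tested genes, of which 33.1% rose and 33.3% fell. The p53 and cell death counts below are near these shares. Among 18 p53 targets 5 rose and 6 fell (median 0.0418, 0.14 without P30 replicate 1, -0.07496 without P30 replicate 2, -1.41 on the inner neuron scale). Cdkn1a, the cell cycle inhibitor p21, was not called at 63.3 and 63.8 CPM at P14 and 57.2 and 84.6 CPM at P30, except by library size alone (0.47) and without P30 replicate 1 (0.402). Phlda3, a repressor of survival signalling, was at 27.3 and 28.2 CPM at P14 and 69.7 and 74.1 CPM at P30, and Bbc3, the death activator PUMA, at 21.4 and 21.2 CPM at P14 and 8.79 and 7.56 CPM at P30. Among 22 genes of apoptosis, necroptosis and pyroptosis 8 rose and 6 fell (median 0.15, 0.0961 without P30 replicate 2, -1.305 on the inner neuron scale). Bid rose by 0.73, and Casp9, an initiator caspase, fell by 0.95 on the log2 scale. In the unfolded protein response list 3 of 15 rose and 10 fell (median -0.58, control -0.17). Hspa5, the main chaperone of the endoplasmic reticulum, was at 622 and 620.5 CPM at P14 and 276 and 344 CPM at P30, whereas Ddit3, its death-promoting factor CHOP, was at 17.1 and 17.4 CPM at P14 and 29.96 and 30.2 CPM at P30 and Chac1, a CHOP target, at 6.06 and 7.71 CPM at P14 and 45.5 and 48.7 CPM at P30. In the oxidative stress and hypoxia list 8 of 18 rose and 9 fell (median -0.24, -0.14 without P30 replicate 1, 0.0802 by library size alone). Cat, catalase, fell by 3.96 and Hmox1, a haem oxygenase, by 2.58 on the log2 scale, and both fell in control.

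Most energy metabolism genes rose on the TMM scale. In the glycolysis list 16 of 20 tested gene IDs rose and 1 fell (median 0.81, -0.63 on the inner neuron scale, control 0.84). Pfkp, a phosphofructokinase, was at 70.2 and 72.1 CPM at P14 and 230.4 and 271 CPM at P30, Hk1, hexokinase 1, at 125 and 132 CPM at P14 and 290.0 and 246 CPM at P30, and Eno2, the neuronal enolase, at 46.6 and 48.1 CPM at P14 and 229 and 177 CPM at P30. Hk2, the hexokinase of photoreceptors and muscle, was at 155 and 164 CPM at P14 and 152 and 259 CPM at P30 in CKO and was not called, except by library size alone (0.68), by DESeq2 (0.38) and without P30 replicate 1 (0.69), while control went from 63.8 and 62.3 CPM to 295 and 345 CPM. The difference of the 2 changes for Hk2 was -1.97 ± 0.303 (SE, adjusted p = 6.58e-04). All 13 of 13 mitochondrially encoded genes rose (median 1.02, 0.67 without P30 replicate 2, -0.41 on the inner neuron scale, control 0.35), and each was higher in P30 replicate 2. The complex I subunits mt-Nd1 and mt-Nd2 were at 3226 and 3123 CPM at P14 and 5029.9 and 7826 CPM at P30 and at 2062 and 1989 CPM at P14 and 3452 and 5976 CPM at P30. For nuclear genes of oxidative phosphorylation 12 of 18 rose and 2 fell (median 0.47, 0.18 without P30 replicate 2, -0.96 on the inner neuron scale, control -0.29). All 18 were higher in P30 replicate 2. That library also had the larger muscle sum and the smaller lens sum, and the part of these tissues was not tested. Cox5a, a subunit of cytochrome oxidase, was at 71.7 and 67.8 CPM at P14 and 103 and 154 CPM at P30. In the cholesterol and lipid synthesis list 7 of 18 rose and 9 fell (median -0.17, -0.103 without P30 replicate 1 and -0.33 without replicate 2, 0.14 by library size alone, control 0.37). Of all tested genes 33.1% rose and 33.3% fell. The change was more positive in CKO for 4 members and more negative for 10, against 23.8% and 21.2% of all tested genes. Fasn, the fatty acid synthase, was at 9081 and 9501 CPM at P14 and 379.8 and 376 CPM at P30, with the gland genes, while Elovl4, the elongase for the long fatty acids of photoreceptor discs, was at 33.8 and 34.9 CPM at P14 and 81.7 and 73.1 CPM at P30.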

How the data were processed

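Per the labels' protocols, polyA+ libraries of tissue labelled retina were sequenced on an Illumina HiSeq2500. The authors deposited raw counts per Ensembl gene for each library. The submitters' processing notes name HISAT2, HTSeq and mm10, and their versions and settings are not given in the sources used here, nor whether counting used strand, so overlapping and antisense genes cannot be separated. Each file held 54532 gene IDs, of which 54409 matched a symbol in GENCODE for GRCm38, the assembly that mm10 names.

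Counts were scaled by TMM, filtered with filterByExpr (21115 genes left) and fitted with edgeR 4.0.16 in R 4.3.3 by a robust quasi-likelihood model with 8 group means over all 16 libraries, which share 8 residual degrees of freedom. Contrasts were P30 minus P14 in CKO, the same in control, and their difference. Benjamini-Hochberg adjustment covered all 21115 genes, with calls at 0.05. The script was tested on simulated counts. It recovered 67 of 67 genes changed 4-fold, 58 of 67 changed 2-fold and 42 of 66 changed 1.5-fold, and 7.73% of its calls were false. All groups were simulated with the pooled spread, so the larger spread of the P30 CKO libraries was not reproduced. Alternatives were DESeq2 1.42.0, RLE factors, library size alone, no filter, a filter of 5 CPM, only the libraries compared, a replicate block, no crystallin and mitochondrial genes, each library left out, and inner neuron scaling. Promoter windows came from RefSeq, and the first listed per gene was used.

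Members, 43 gene lists (666 genes, 651 tested) and tests were chosen with earlier results of these data known. Lists are described by counts and medians, with no test. Named genes are Uxt, the 10 largest rises and falls past the threshold among genes with non-overlapping libraries and a mean of at least 5 CPM in the higher group (predicted, Xist and Y-linked genes left out), the 5 largest differences from control each way, and for each list its first 2 members and the 3 called members with the smallest p each way. Not every gene this rule gives is printed. Nr2e3, Samd11, Opn1sw, Gngt2, Ifit1, Isg15, Xist and Ddx3y fall outside it and were chosen after their values were seen. The same holds for Elovl5, Plin2, Atp2a1 and Oas3.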

Additional observations from a re-analysis of the deposited data

Results flagged for a closer look

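Of 157 genes named in the text, the change from P14 to P30 differed between CKO and control for 102 by the interaction term of the edgeR model, and 24 of these have their difference printed in the report or here. The values are the CKO change minus the control change on the log2 scale. The controls share no library with the CKO groups. Among genes of retinal neurons and glia the change was more positive in CKO for A2m by 2.67, Gfap by 2.26, Grm6 by 0.95, Sag by 0.58 and Crx by 0.30. It was more positive also for Mbp by 1.79, C4b by 1.55, Serping1 by 1.17 and C1qa by 1.05. It was more negative for Hk2 at -1.97, Thrb at -1.74, Serpina3n at -1.46 and Unc13b at -1.30. On the inner neuron scale the difference of all genes had a median of -0.995, so positive values under about 1 turn negative there.

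The naming rule for the largest differences between genotypes gave genes of other tissues or of low level. The positive ones were Avp, a hormone precursor, at 7.82 ± 1.404 (SE, adjusted p = 0.00104), Gcg, the glucagon precursor, at 7.54 ± 0.79 (SE, adjusted p = 3.58e-07), Chrnd, a muscle acetylcholine receptor subunit, at 5.54 ± 1.22 (SE, adjusted p = 0.00244), Glycam1 at 5.47 ± 0.602 (SE, adjusted p = 6.44e-07) and Myh13, the myosin of eye muscle, at 4.94 ± 0.37 (SE, adjusted p = 7.08e-06). Avp was at 6.05 and 6.57 CPM at P14 and 0 and 0.124 CPM at P30 in control, and Gcg at 4.66 and 5.53 CPM and 0.0577 and 0 CPM. The negative ones were Capn11 at -5.44 ± 1.58 (SE, adjusted p = 0.0208), Prss16 at -5.13 ± 1.49 (SE, adjusted p = 0.0117), Hdc, the histamine-making enzyme, at -4.63 ± 0.298 (SE, adjusted p = 6.76e-10), Nipal1 at -3.97 ± 0.25 (SE, adjusted p = 4.25e-10) and Dgat2l6 at -3.78 ± 1.38 (SE, adjusted p = 0.037). Aldh3a1 of the cornea differed by 3.81 ± 0.12 (SE, adjusted p = 2.45e-12). With P30 levels at or near 0, the fitted values of Prss16 and Dgat2l6 depend on the prior count and are no bound. Capn11, Prss16 and Dgat2l6 lost the call without some single libraries, Dgat2l6 also with a replicate block.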

How the results depend on the processing

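The 14032 calls between ages and the 9500 differences from control stayed within 1.5 times under every alternative without a fold limit. Requiring at least 2-fold left 6812 (4180 higher, 2632 lower) and 3699 (2718 positive, 981 negative). Scaling by library size alone gave 4425 lower genes and 2643 negative differences, and fitting only the libraries compared gave 2587 negative differences. The inner neuron scale gave 1444 higher and 15223 lower genes, and 1023 positive and 12036 negative differences. Leaving out 1 CKO library gave 12680 to 14164 calls between ages, and leaving out 1 of the 8 libraries 8388 to 10479 differences. Such fits assume that the lone library varies like the other groups. On the inner neuron scale these list medians turned negative: rod phototransduction and outer segment -0.19, rod and cone common -0.48, photoreceptor synapse -0.25, photoreceptor cilium -0.92, bipolar cell -0.13, Müller glia -0.14, reactive gliosis -0.56, microglia and macrophage -0.72, activated phagocyte -0.36, complement -0.51, interferon response -0.0951, antigen presentation -0.45, chemokine and cytokine -0.44, p53 target -1.41, apoptosis and related death -1.305, glycolysis -0.63, mitochondrially encoded -0.41, nuclear oxidative phosphorylation -0.96, neurogenic precursor and progenitor -0.695, astrocyte -0.22, ciliary body -0.93, neurotrophin and growth factor -0.46, immediate early -0.44 and photoreceptors together -0.200. By library size alone these medians turned positive: oxidative stress and hypoxia 0.0802, prefoldin and R2TP complex 0.0565, pericyte and smooth muscle 0.0421 and cholesterol and lipid synthesis 0.14. Leaving out 1 library changed the sign within these ranges: p53 target median -0.07496 to 0.14, endothelium median -0.57 to 0.0305, Samd11 -0.0695 to 0.79, Opn1sw -0.25 to 2.82, Gngt2 -0.14 to 0.22, H2-K1 -0.48 to 0.27, Cdkn1a -0.15 to 0.402, Hk2 -0.0617 to 0.69 and Uxt difference from control -0.0597 to 0.43. Named genes whose sign turned were Uxt at 0.0565 and Cx3cr1 at 0.12 and H2-K1 at 0.28 by library size alone, and H2-K1 at 0.0672 without crystallin and mitochondrial genes. Of the other comparisons of named genes with their main value, 2138 kept their direction and side of the threshold. The call was gained in 18 cases and lost in 26. The change of Samd11, Opn1sw, Gngt2, Cdkn1a and Hk2 and the difference from control of Glul gained it, under library size alone for all 6 and under further settings for all but Gngt2. Grm6, Tmem119, Alas2, Capn11, Prss16 and Dgat2l6 lost it, under 3, 4, 4, 5, 2 and 8 settings. Same-numbered libraries did not deviate together (the correlations of their deviations lay between -0.0290 and 0.0324), so the replicate numbers do not pair them, and a replicate block gave 13990 calls between ages and 9422 differences. Depth limits genes near the floor of 3 counts, which was 0.138 to 0.202 CPM per CKO library.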

Other observations

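Genes of the optic nerve and of the tissue behind the retina also moved. In the myelin and optic nerve list 8 of 11 tested members rose and 3 fell, with a median of 1.499 in CKO and -0.37 in control. Mbp, myelin basic protein, was at 131 and 135 CPM at P14 and 738 and 699.8 CPM at P30, and Mobp, another myelin protein, at 17.2 and 16.3 CPM at P14 and 173 and 159.6 CPM at P30. Sox10, a factor of oligodendrocytes that Schwann cells and secretory glands also express, was at 396 and 430.0 CPM at P14 and 54.2 and 53.2 CPM at P30. As background, myelin in the mouse lies in the optic nerve and not in the retina, and the amount of nerve in each sample was not tested. In the astrocyte list 6 of 8 rose and 2 fell (median 1.23, -0.22 on the inner neuron scale), Fgfr3 by 1.69, while Aldh1l1 fell by 0.94 on the log2 scale. Of 16 genes of the retinal pigment epithelium 15 rose and 1 fell (median 1.499, control 0.66). Rpe65, the isomerase of the visual cycle, was at 20.9 and 22.8 CPM at P14 and 255 and 126 CPM at P30, so the 2 P30 libraries differed about 2-fold.

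Vessel genes were mixed in CKO. The endothelium counts in CKO are near the shares over all tested genes, of which 33.1% rose and 33.3% fell. In the endothelium list 4 of 13 rose and 5 fell (median -0.32, 0.0305 without P30 replicate 1, -0.57 without replicate 2), Kdr, the receptor of vascular growth factor, by 0.75 upward and Pecam1 by 1.13 downward on the log2 scale. In the pericyte and smooth muscle list 2 of 9 rose and 5 fell (median -0.27, -0.15 without P30 replicate 1 and -0.44 without replicate 2, 0.0421 by library size alone). In control 2 endothelium genes rose and 10 fell (median -0.998), and 1 pericyte gene rose and 7 fell (median -1.29). The change was more positive in CKO for 10 endothelium genes and more negative for 0, against 23.8% and 21.2% of all tested genes. For the pericyte list these counts were 5 and 1. The endothelium median difference was 0.94, and positive differences under about 1 turn negative on the inner neuron scale. Acta2, smooth muscle actin, was at 607 and 611 CPM at P14 and 145 and 165 CPM at P30. Of 5 erythroid genes only Alas2, at 30.8 and 30.6 CPM at P14 and 17.1 and 13.00 CPM at P30, was called, and it lost the call without either P14 replicate, without P30 replicate 2 and by library size alone (-0.71). In the list of B cell and neutrophil genes 1 of 9 rose and 2 fell (median -0.402, -0.19 without P14 replicate 1 and -0.15 without P30 replicate 1), and in that of ciliary body, iris and sclera 5 of 10 rose and 3 fell (median 0.53, -0.93 on the inner neuron scale). Of 13 neurotrophin and growth factor genes 11 rose and 2 fell (median 1.003, -0.46 on the inner neuron scale), Bdnf by 1.44 and its low-affinity receptor Ngfr by 1.94. Of 13 immediate early genes 7 rose and 2 fell (median 0.95, 0.02901 without P30 replicate 2, -0.44 on the inner neuron scale). Their sum was 1012 and 1029 CPM at P14 and 833 and 1541 CPM at P30, so P30 replicate 1 was below both P14 libraries and replicate 2 above them. Junb, an AP-1 subunit, was at 34.1 and 36.5 CPM at P14 and 133 and 213 CPM at P30.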
